A study of Mus musculus with 6 samples.

Results

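Jun, Junb, Jund, Fos, Fosb, Fosl2 and Atf3 encode transcription factors of the AP-1 family, and their transcripts were followed here in neutrophils that lack the microRNA miR-223. They were measured by 8 of the 45101 probe sets on the expression arrays, a probe set being several short probes that read the same transcript. Jun had 2 probe sets and each of the other genes had 1. The probe sets were chosen by gene family from a list of probe set numbers, and the family was picked on the null against wild-type values of these same arrays, in which Jun stands out. Those values are therefore given as a description, and where the text counts how many of the 8 passed a threshold on them, the count is a description too and no test. The deposited table names its rows by number only, so each gene name is the one the list pairs with that number and was not checked against a probe annotation.

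The arrays came from bone-marrow neutrophils of mice, 3 from miR-223 null animals and 3 from wild-type animals. Per the labels, the cells were taken directly from the marrow with a Gr-1 antibody and magnetic separation, and both groups were handled by the same protocols. Gr-1 binds Ly6G, a neutrophil protein, and also Ly6C, which monocytes carry. The sources used here do not give strain, age, sex or the construction of the null allele, and do not say whether each sample was a separate animal. The p-values measure only the spread between these samples, which may be partly technical. Because the rows carry no gene names beyond these 8, neutrophil markers, markers of other marrow cells, the wider AP-1 pathway and the loss of miR-223 itself were not analysed here.

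AP-1 is a dimer held together by a leucine zipper. Jun proteins pair with each other or with Fos proteins, while Fos proteins bind DNA stably as AP-1 only with a Jun partner, and Atf3 is a related factor that can pair with Jun proteins. Many of these genes are immediate early genes, transcribed within minutes of a stimulus from factors already in the cell, and AP-1 takes part in the transcription of inflammatory genes in myeloid cells. miR-223 is abundant in that lineage, and a microRNA acts by pairing, mainly through its seed, with transcripts that are then broken down or translated less.

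The 2 mature products of the gene missing from the null mice are shown because the seed, bases 2 to 8, sets which transcripts they can pair with. The sequences are from RefSeq (GRCm38.p6, plus strand of the X chromosome), written 5′ to 3′ with the seed in capitals.
miR-223-3p: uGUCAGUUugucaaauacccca
miR-223-5p: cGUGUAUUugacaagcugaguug
The 2 products have different seeds. Whether the AP-1 transcripts carry matches to either seed was not analysed here.

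All 7 genes had a promoter in the RefSeq table, and 3 are shown over the 250 bases before the annotated start: Jun, the gene that differed between the groups, and Fos and Junb, whose levels varied together across the arrays. Capitals mark matches to the motifs named after the sequences, on either strand.
Jun, chr4:95052223-95052472, minus strand: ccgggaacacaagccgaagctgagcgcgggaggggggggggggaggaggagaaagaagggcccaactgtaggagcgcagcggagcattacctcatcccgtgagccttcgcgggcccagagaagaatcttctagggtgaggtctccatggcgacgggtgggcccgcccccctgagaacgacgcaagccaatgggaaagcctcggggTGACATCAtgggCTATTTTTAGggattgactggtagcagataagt
Fos, chr12:85473640-85473889, plus strand: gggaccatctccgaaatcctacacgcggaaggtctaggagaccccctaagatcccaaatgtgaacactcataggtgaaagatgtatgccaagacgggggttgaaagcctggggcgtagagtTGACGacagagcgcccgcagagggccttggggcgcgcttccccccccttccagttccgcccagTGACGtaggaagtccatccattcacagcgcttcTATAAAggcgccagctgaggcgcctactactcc
Junb, chr8:84978749-84978998, minus strand: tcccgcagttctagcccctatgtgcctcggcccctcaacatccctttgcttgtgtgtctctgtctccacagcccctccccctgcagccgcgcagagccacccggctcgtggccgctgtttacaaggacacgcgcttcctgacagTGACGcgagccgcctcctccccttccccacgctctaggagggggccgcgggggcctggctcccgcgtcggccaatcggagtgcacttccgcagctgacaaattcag
The Jun window held TGACATCA, a variant of the AP-1 site known from the control of Jun by its own protein, from 45 to 38 bases before the start. It also held the motif of MEF2 factors from 33 to 24 bases before the start. Across all 32851 promoter windows of that length, 2.93% held TGACATCA and 2.92% the MEF2 motif. Among the other 6 genes the MEF2 motif was matched in Atf3 and TGACATCA in none. TGACG, the core of the site bound by cyclic AMP response factors, was matched in 4 of the 7 windows (Fos, Fosb, Junb and Atf3), against 17.8% of all windows, and Fos held 2 copies. TATAAA was matched in Fos alone among the 7, 33 to 28 bases before its start, against 12.4% of all windows. The AP-1 site TGACTCA (4.46% of all windows), the full site TGACGTCA (1.55%, containing TGACG) and the CArG box (1.47%) were not matched in any of the 7 windows. TGACATCA and the MEF2 motif were added to the search after the windows had been read. These are letter matches and not measured binding, and sequence outside the 250 bases was not searched for any motif.

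The 6 arrays had near-identical distributions (log2 medians from 4.81 to 4.84) but fell into 2 technical sets by their hybridization controls, bacterial and phage sequences added during the assay. The mean of 18 such probe sets was 10.94 to 10.98 on the brighter arrays, which are replicates 1 and 2 of the null group with replicate 1 of the wild type. It was 10.72 to 10.81 on the dimmer arrays, replicate 3 of the null group with replicates 2 and 3 of the wild type. Each set holds both groups, so the null against wild-type difference of each AP-1 probe set is also given within the sets. Such a difference rests on 1 wild-type array in the brighter set and on 1 null array in the dimmer set. A change of sign between the sets can therefore come from a single array. A probe set was tested when its mean over the arrays reached the median of all non-control probe sets, 4.83, which left 22519. Of the 8 AP-1 probe sets, 7 were tested, and Fosb was not.

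Jun, a main component of AP-1 dimers, was about 4 times as high in null as in wild-type neutrophils on both of its probe sets. On the first Jun probe set the null replicates read 10.11, 9.88 and 9.83 and the wild-type replicates 7.63, 7.96 and 8.18, in log2 units. The groups lay far apart, the lowest null value being 1.65 above the highest wild-type value. The means were 9.94 ± 0.148 and 7.92 ± 0.279 (SD, n = 3 each), a difference of 2.01 (standard error 0.152), which is 4.04-fold (95% interval 3.16 to 5.16).

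The second Jun probe set, 1448694_AT, read 8.53, 8.28 and 8.61 on the null replicates and 6.56, 6.57 and 6.67 on the wild-type replicates. Here too no values overlapped, and the gap between the groups was 1.61. The means were 8.47 ± 0.168 and 6.60 ± 0.0593 (SD, n = 3 each), a difference of 1.87 (standard error 0.118), which is 3.66-fold (95% interval 3.02 to 4.42). The 2 probe sets gave different orders of the arrays within the null group: replicate 1 was the highest on the first and replicate 3 on the second. In the wild-type group both had replicate 1 as the lowest and replicate 3 as the highest. Averaged over the 2 probe sets, the null replicates lay at 9.32, 9.08 and 9.22 and the wild-type replicates at 7.10, 7.27 and 7.43, a difference of 1.94 or 3.84-fold. In bulk RNA, more Jun RNA per neutrophil and more cells of a kind rich in it cannot be told apart.

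Both technical sets showed the Jun difference. Within the brighter set it was 2.37 on the first probe set and 1.84 on 1448694_AT, and within the dimmer one 1.76 and 1.99, so neither set was higher on both. With any single array left out, the difference stayed between 1.87 and 2.14 on the first probe set and between 1.80 and 1.96 on the second.

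**Figure D1:**
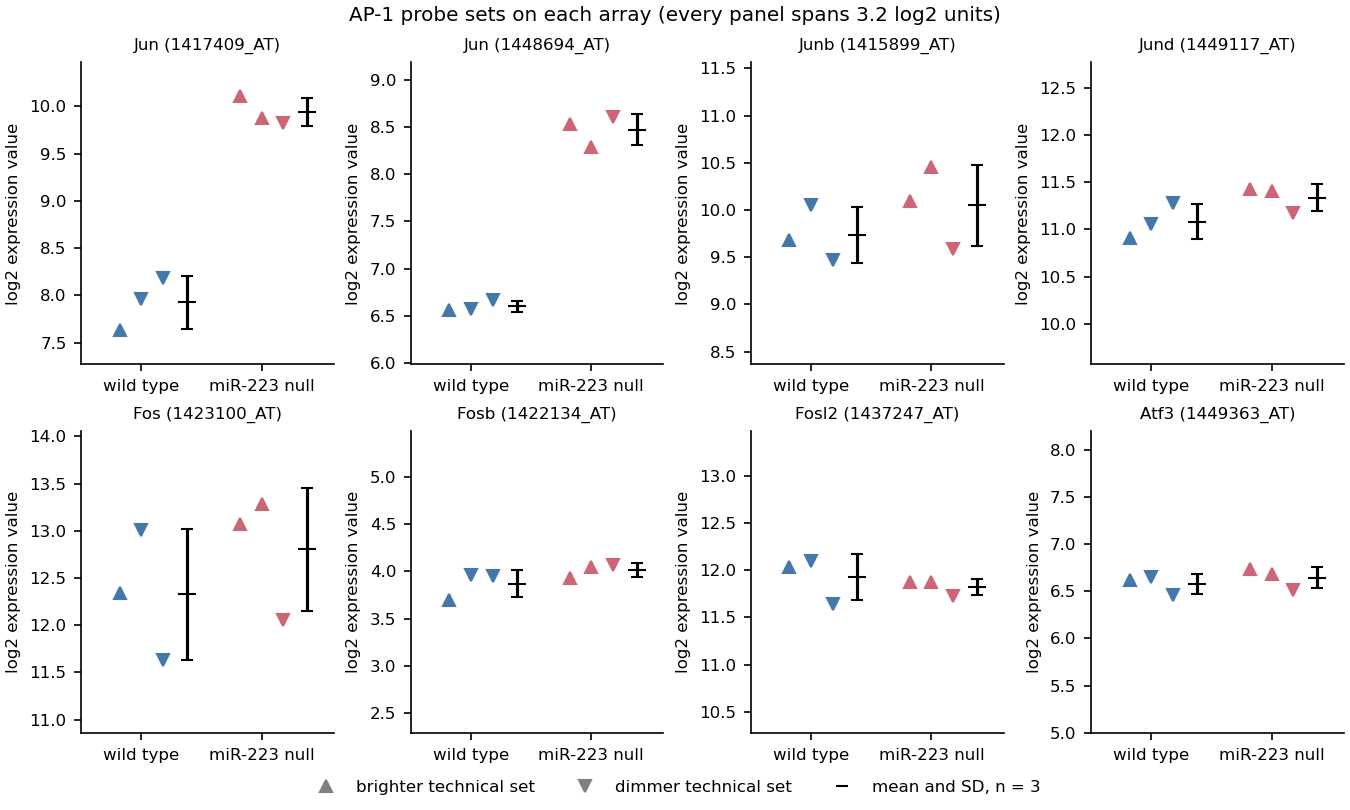
Log2 expression value of each of the 8 AP-1 probe sets on the 6 arrays, wild type in blue and miR-223 null in red. Upward triangles are arrays of the brighter technical set and downward triangles those of the dimmer set, and the bar is the mean and SD of 3 arrays. The groups are separate for both Jun probe sets and overlap for the other 6.

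Jund, a Jun protein that many cells make steadily, was slightly higher on average in null cells, with overlapping values. Probe set 1449117_AT read 11.43, 11.40 and 11.17 on the null replicates and 10.91, 11.05 and 11.27 on the wild-type replicates. The overlap came from null replicate 3, which lay below wild-type replicate 3. The difference was 0.26 (standard error 0.112), which is 1.20-fold (95% interval 0.997 to 1.43). Within the brighter set it was 0.51, and within the dimmer one 0.011.

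Junb, an immediate early Jun protein that often acts against Jun, spread widely within both groups. Probe set 1415899_AT read 10.10, 10.46 and 9.59 on the null replicates and 9.68, 10.06 and 9.47 on the wild-type replicates. Wild-type replicate 2 lay far above null replicate 3, so the groups overlapped. The means were 10.05 ± 0.433 and 9.74 ± 0.295 (SD, n = 3 each), a difference of 0.31 (standard error 0.230), which is 1.24-fold (95% interval 0.856 to 1.80). Its sign was not the same in the 2 sets, at 0.59 in the brighter and −0.17 in the dimmer, where replicate 3 was the only null array.

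Fos, the classic immediate early partner of Jun, varied more from array to array than between the groups. Probe set 1423100_AT read 13.07, 13.28 and 12.06 on the null replicates and 12.34, 13.01 and 11.63 on the wild-type replicates. The range within a group was 2.34-fold among null and 2.61-fold among wild-type arrays. The difference between the means was 0.48 (standard error 0.402), which is 1.39-fold. Its 95% interval ran from 0.727-fold to 2.66-fold. Within the brighter set the difference was 0.84, and within the dimmer one −0.26, where replicate 3 was the only null array.

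Fosl2, which encodes the Fos protein Fra-2, was the only tested AP-1 probe set with a lower mean in null cells. Probe set 1437247_AT read 11.87, 11.87 and 11.73 on the null replicates and 12.03, 12.10 and 11.65 on the wild-type replicates. The null values all lay between the highest and the lowest wild-type value. The difference was −0.10 (standard error 0.120), and its 95% interval ran from 0.769-fold to 1.13-fold. Within the brighter and dimmer sets it was −0.16 and −0.14.

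Fosb, a further immediate early Fos gene, was dim on every array, between 3.70 and 4.07 on probe set 1422134_AT. All 6 values lay below 4.83, the level needed for testing. Control probe sets for a bacterial trp transcript ranged from 2.57 to 3.14. The Fosb values lay above these controls but below the level for testing, and whether the transcript was detected was not tested. The small Fosb difference of 0.15 (95% interval 0.925-fold to 1.32-fold, from the fit of all probe sets) is given as a description only. Within the brighter and dimmer sets it was 0.29 and 0.11.

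Atf3, a stress-induced factor that often represses transcription, had nearly the same mean in both groups. Probe set 1449363_AT read 6.73, 6.68 and 6.52 on the null replicates and 6.62, 6.65 and 6.46 on the wild-type replicates. The difference was 0.064 (standard error 0.119), which is 1.05-fold (95% interval 0.863 to 1.27). Within the brighter and dimmer sets it was 0.082 and −0.038.

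**Figure D2:**
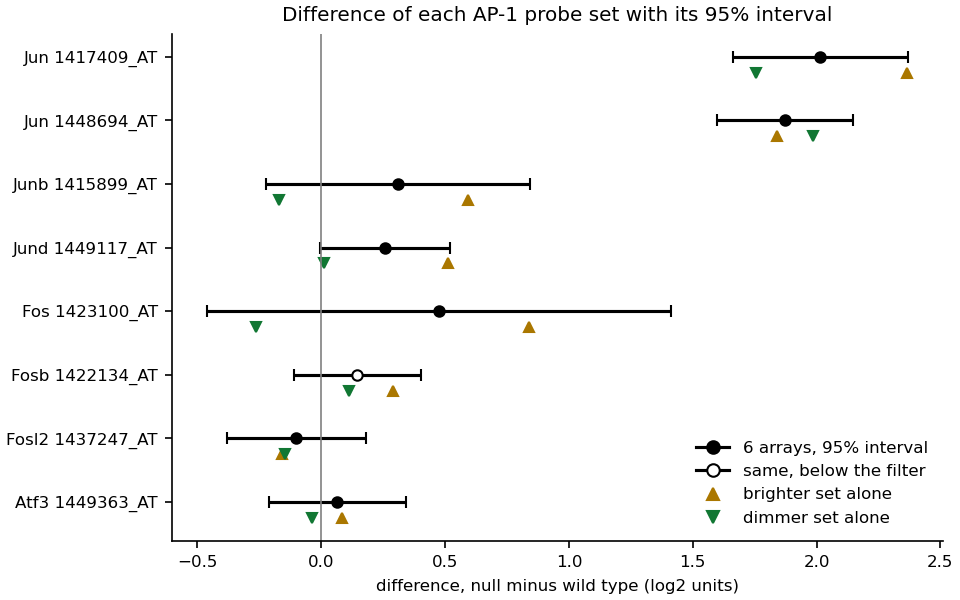
Difference between null and wild-type means of each AP-1 probe set in log2 units, with its 95% interval from limma over the 6 arrays (circles, open for Fosb, which lay below the filter). Triangles give the difference within the brighter and the dimmer technical set. The Jun differences, 2.01 and 1.87, lie to the right of all others, which run from −0.10 to 0.48.

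The place of the family among all tested probe sets is given as a description, since the family was picked on this same comparison and its standing there was fixed by that choice. In the limma fit 864 of 22519 probe sets (3.84%) were called at an adjusted p of 0.05, and 2 of the 7 tested AP-1 probe sets, those of Jun, were among them. With the technical set as a block 2466 (11.0%) were called, and the same 2 of 7 were among them. Null values lay entirely above wild-type values for 12.8% of all tested probe sets and for these 2 of the 7. Nothing is read from these shares. Over the 7 the median difference was 0.31, and over all tested probe sets −0.0080. Without Jun, the 5 differences had a median of 0.26, and all 5 lay within the 5th to 95th percentile of all tested probe sets, −0.40 to 0.49.

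Among all tested probe sets, the first Jun probe set had the 6th largest rise and 1448694_AT the 10th largest. Fos stood apart in another way: its SD within groups, 0.674, was larger than that of 99.2% of tested probe sets, whose median was 0.153. For Junb, with an SD of 0.371, the share was 92.4%. The Jun probe sets, at 0.223 and 0.126, exceeded 73.6% and 37.0%. Atf3, at 0.108, exceeded 28.1%.

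**Figure D3:**
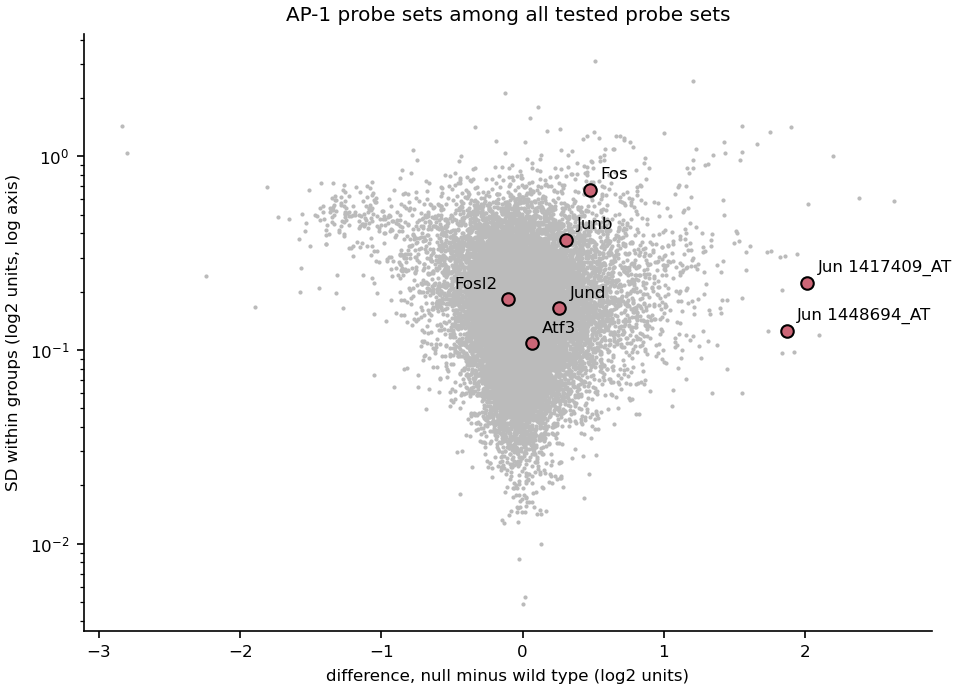
Each grey point is 1 of 22519 tested probe sets, placed by its difference between null and wild type (horizontal, log2 units) and its SD within groups (vertical, log2 units on a log axis), with the 7 tested AP-1 probe sets in red. Jun lies far to the right at a middling SD, whereas Fos, with an SD of 0.674, lies near the top.

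Junb and Atf3 tended to rise and fall with Fos across the 6 arrays. The adjusted p passed the threshold only for Spearman's rho with Junb and only for Pearson's r with Atf3. How many other tested probe sets follow Fos as closely was not tested, so nothing particular to the AP-1 family is read from these correlations. For Fosl2 a high correlation with Fos appeared only after subtraction of the group means, which was not tested. Fos and Junb put the 6 arrays in the same order: null replicate 2, null replicate 1, wild-type replicate 2, wild-type replicate 1, null replicate 3, wild-type replicate 3. Over the 6 arrays Pearson's r was 0.958 (exact permutation p = 0.0111, adjusted 0.0556 over the 10 pairs of the 5 tested genes other than Jun). Spearman's rho was 1.0 (exact permutation p = 0.00278, the smallest possible here, adjusted 0.0278). Without the 2 arrays farthest from the Junb median, r was 0.996. After subtraction of the group means, r was 0.951.

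Fos and Atf3 varied together as well, though Atf3 moved little, its highest array being 1.21-fold above its lowest, against 3.15-fold for Fos. Pearson's r was 0.932 (exact permutation p = 0.00417, adjusted 0.0417) and Spearman's rho 0.943 (exact permutation p = 0.0167, adjusted 0.0556). Without the 2 arrays farthest from the Fos median r was 0.663, so the relation rests partly on those arrays. For Junb and Atf3, r was 0.825 (exact permutation p = 0.0431, adjusted 0.144) and rho 0.943 (exact permutation p = 0.0167, adjusted 0.0556). The other 7 pairs, which all include Jund or Fosl2, had adjusted exact permutation p-values from 0.354 to 0.669 for r. As a description with no p, r after subtraction of the group means was 0.923 for Fos and Atf3, 0.861 for Fos and Fosl2, 0.879 for Fosl2 and Atf3, 0.800 for Junb and Atf3 and 0.698 for Junb and Fosl2. On that measure Fosl2 followed the other 3 genes more closely than on the raw values, whereas the pairs with Jund lay between −0.45 and 0.22. For Fos and Fosl2 the raw r was 0.622, and r was −0.527 without the 2 arrays farthest from the Fos median. With the same step, r was 0.443 for Junb and Fosl2 (Junb median) and 0.450 for Fosl2 and Atf3 (Fosl2 median). The points share arrays and normalization, and each technical set holds only 3 arrays, too few for a value within a set. In both groups replicate 3 was the lowest array for Fos, Junb, Fosl2 and Atf3. For Fos and Junb replicate 2 was also the highest array and replicate 1 the middle one in both groups. The permutations treat the 6 arrays as exchangeable. If arrays with the same number share an effect, they are not exchangeable and these p-values do not hold. A shared effect of the replicate number on these correlations was not tested. Jun was left out because its values fall into 2 separate clusters.

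**Figure D4:**
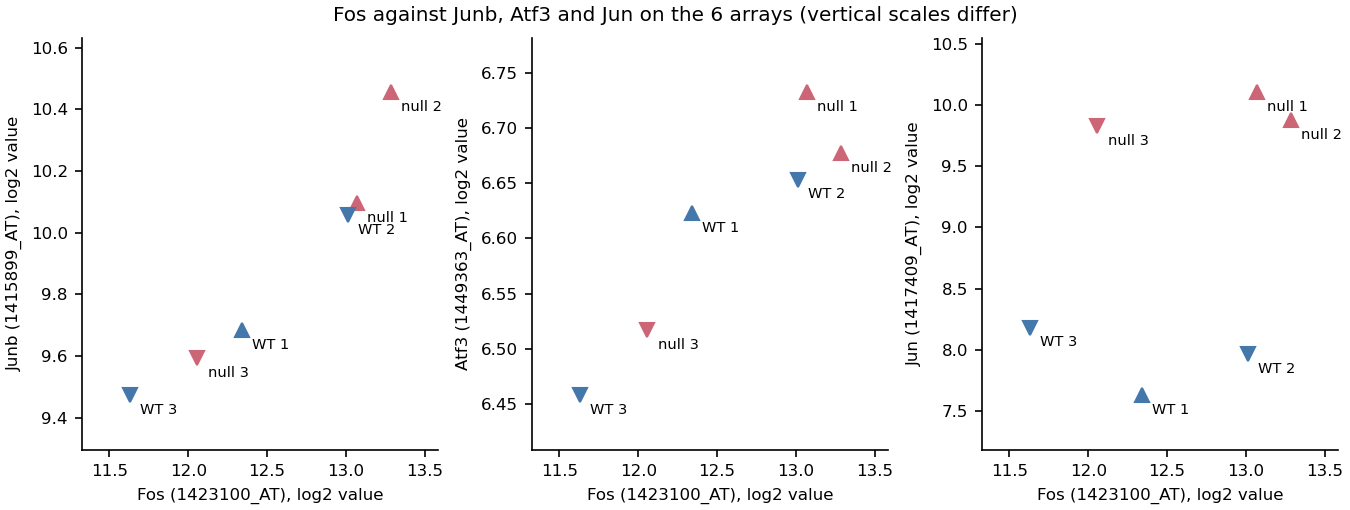
Log2 value of Fos on each of the 6 arrays against Junb, Atf3 and Jun, wild type (WT) in blue and miR-223 null in red. Triangles point up for the brighter and down for the dimmer technical set. Fos and Junb rank the arrays identically, whereas Jun parts into 2 clusters by group at any level of Fos.

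The technical set is a measure that the choice of the family did not use, and its effect was tested with the group in the fit. Of the 7 tested AP-1 probe sets, 0 passed an adjusted p of 0.05 for the set (limma, adjusted p from 0.445 to 0.985), against 436 of all tested probe sets (1.94%). At an unadjusted p under 0.05 the count of AP-1 probe sets was also 0. With a share of 1.94% over all tested probe sets, 0 among 7 is unremarkable, and nothing about the family is read from these counts. The count of 436 itself depended strongly on the fit. The largest set difference was that of Fos, 0.57 higher in the brighter set (standard error 0.375) (limma adjusted p = 0.445). Junb was 0.30 higher there (standard error 0.217), and the Jun probe sets differed by −0.14 and −0.13. These set differences depended on single arrays. With 1 array left out, that of Fos ranged from 0.018 without null replicate 3 (limma adjusted p = 0.991) to 1.12 without wild-type replicate 1 (limma adjusted p = 0.438). That of Junb ranged from −0.082 to 0.68, that of the first Jun probe set from −0.45 to 0.16 and that of 1448694_AT from −0.20 to −0.057. Fos passed the threshold in 1 of these 6 fits, without wild-type replicate 2, at a difference of 0.94 (limma adjusted p = 0.00877). Wild-type replicate 2 belongs to the dimmer set and had the third-highest Fos value.

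The profiles most like that of the first Jun probe set were sought among 2263 other tested probe sets that varied by at least 1 log2 unit over the 6 arrays. The closest were 1423267_S_AT and 1454656_AT, both with a Pearson's r of 0.997 over the 6 arrays, and neither has a gene name here. They differed between null and wild type by 0.83 and 1.40 log2 units. The second Jun probe set ranked 22nd in the same list, with an r of 0.984, and Fos ranked 820th, with an r of 0.376. These values follow mainly from the separation of the groups and are given as a description of 6 arrays.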

How the data were processed

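RNA from 3 miR-223 null and 3 wild-type neutrophil samples was measured on Affymetrix arrays. The deposited values are on a log2 scale, 1 per probe set and array, as inferred from their range of 2.12 to 14.98, and normalization between arrays by the authors was inferred from their near-identical distributions. The authors used GCOS, per the submitters' processing notes; the sources used here give neither its version nor its background correction and probe summary. Scanner intensities and detection calls were not used.

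The 64 control probe sets were removed, and of the other 45037 those with a mean at or above the median were tested. Null was compared with wild type in R 4.3.3 by limma 3.58.1, using lmFit and then a trended eBayes (two-sided), with Benjamini-Hochberg adjustment over 22519 probe sets and a threshold of 0.05. The median standard error of a difference was 0.128, and the number of arrays limits the precision. Intervals are 95% limma intervals. The limma comparison of null with wild type was checked on simulated data with known differences. The other steps were not checked in this way. Technical sets were split at the largest gap between array means of the hybridization controls (0.131, the next being 0.0501). Correlations across arrays were tested by exact two-sided permutation in numpy 2.4.6, with ranks from scipy 1.17.1. Figures were drawn with matplotlib 3.10.9.

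The AP-1 probe sets, the technical sets and the lists were chosen with earlier results of these data known. The text names all 8 AP-1 probe sets and the closest 2 of the 5 probe sets most like Jun. Planned counts of pathway and marker genes, and protein comparisons, were not run, because probe sets without a gene name and protein sequences were not used here. Alternatives were other filters, the technical set or replicate number as a block, leaving out each array, adding 16 to the linear values, no intensity trend, and quantile normalization.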

Additional observations from a re-analysis of the deposited data

How the results depend on the processing

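The family was chosen on the comparison of null with wild type, so how its members fared in other fits of that comparison is a description and adds no support. The Jun difference ran from 1.87 to 2.14 on the first probe set and from 1.71 to 1.96 on 1448694_AT over 13 alternative fits each. The value of 1.71 came with an offset of 16 on the linear scale, which shrinks differences of dimmer probe sets by construction. With the replicate number as a block, the Fos difference of 0.48 had a standard error of 0.0911 in place of 0.402. The Junb difference of 0.31 had a standard error of 0.0897 in place of 0.230. In that replicate block fit 3 AP-1 probe sets, Fos being the third, and 857 of all probe sets passed the threshold, against 2 and 864. Deviations from the group means correlated at 0.211, −0.124 and 0.371 for same-numbered arrays, and 3 of 6 arrays matched their own number best. These values do not settle whether same-numbered samples were paired. The samples were treated as unpaired in the main fit.

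Over all tested probe sets the count of 864 rose to 2466 in the fit blocked on the technical set (50.9% higher in null cells, against 72.3%) and ranged from 85 to 592 with an array left out. The count for the technical set effect, 436, was 0 without the intensity trend and 0 to 1201 with an array left out. The count of AP-1 probe sets with a set effect rose from 0 to 1 without wild-type replicate 2. The cause was not tested. The leave-one-out differences ranged from 0.13 to 0.85 for Fos, 0.11 to 0.54 for Junb, 0.17 to 0.36 for Jund, −0.24 to −0.014 for Fosl2 and 0.0042 to 0.13 for Atf3. Low signal limits Fosb, which entered only the fit without a filter.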
